A study of Rattus norvegicus with 30 samples.

Results

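Transcripts of 5 genes of circulating blood cells were followed across rat hearts: S100a8 and S100a9 of neutrophils, Cd79b of B cells, Clec1b of platelets and Gzmb of cytotoxic lymphocytes. They are 5 of 26785 genes on the array, and all 5 passed the filter that left 18333 genes for testing (called well above background by 4 or more of the 5 arrays in 1 or more groups). The genes were chosen from their differences between perfused and non-perfused hearts on these same arrays, so those differences are given below as a description, without a test. Each gene was read from the brightest probe whose transcript accession maps to its symbol, A_44_P1055780 for S100a8, A_44_P353618 for S100a9, A_43_P15598 for Cd79b, A_44_P869774 for Clec1b and A_64_P062980 for Gzmb.

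Left ventricles came from male Sprague Dawley rats of 16 to 18 weeks, and each of 30 samples was hybridised to 1 one-colour Agilent array. In each diet, 5 hearts were perfused with glucose, 5 with mannitol and 5 were not perfused. The sucrose groups ate a diet high in sucrose, meant to induce insulin resistance, during 8 to 10 weeks, and the chow groups ate chow. Perfused hearts were arrested in the cold and then worked outside the body for 60 min in a buffer with 25 mmol/L glucose or, as the osmotic control without glucose, 25 mmol/L mannitol. Further components of that buffer were propionate (2 mmol/L), acetoacetate (1 mmol/L), hydroxybutyrate (10 mmol/L) and calcium (2.5 mmol/L). Non-perfused hearts were excised into ice-cold buffer and frozen at once. The design text calls the samples biological replicates. Cold arrest, work, buffer and time cannot be told apart in the perfused groups.

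S100a8 and S100a9 pair into calprotectin, a calcium- and zinc-binding protein that fills the cytoplasm of neutrophils and is released at sites of injury, where it is known to act on Tlr4 and Ager. Cd79b is a signalling chain of the B cell receptor. Clec1b encodes CLEC-2, the platelet receptor for podoplanin, which signals through Syk. Gzmb encodes granzyme B, a protease that cytotoxic T cells and natural killer cells deliver into target cells together with perforin, and it is thus not a gene of the other cell types named. In the tissue as a whole, fewer cells of a type and less RNA per cell cannot be told apart.

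In the RefSeq annotation of the GRCr8 assembly, S100a8 lies at chr2:178464095-178465223 and S100a9 at chr2:178487941-178490622, with 22717 bases between them. Cd79b lies at chr10:91739134-91742312, Clec1b at chr4:164533987-164542320 and Gzmb at chr15:34459007-34462469. The 250 bases before the start site of RefSeq's promoter table are shown for S100a9 and Clec1b, which were lower in perfused hearts, and for Gzmb, which was higher. That site is the outer end of the gene for S100a9 and Gzmb. For Clec1b it is position 164534109, 122 bases inside the interval given above, so part of the Clec1b window lies in the annotated gene. The windows are RefSeq sequences of GRCr8, printed 5′ to 3′ on the strand of the gene, and stand at chr2:178490623-178490872 (minus strand), chr4:164533859-164534108 (plus strand) and chr15:34462470-34462719 (minus strand). Capitals mark matches to any of 4 motifs, searched on both strands.
S100a9: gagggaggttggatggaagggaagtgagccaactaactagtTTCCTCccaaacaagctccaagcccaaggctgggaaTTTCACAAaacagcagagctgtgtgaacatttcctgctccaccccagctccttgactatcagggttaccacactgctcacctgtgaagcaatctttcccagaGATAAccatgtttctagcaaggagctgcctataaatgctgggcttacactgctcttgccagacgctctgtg
Clec1b: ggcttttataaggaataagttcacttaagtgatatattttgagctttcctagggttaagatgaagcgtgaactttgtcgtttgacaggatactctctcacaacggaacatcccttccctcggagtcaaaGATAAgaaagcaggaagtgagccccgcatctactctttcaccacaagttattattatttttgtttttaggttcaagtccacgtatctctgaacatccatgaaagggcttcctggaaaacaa
Gzmb: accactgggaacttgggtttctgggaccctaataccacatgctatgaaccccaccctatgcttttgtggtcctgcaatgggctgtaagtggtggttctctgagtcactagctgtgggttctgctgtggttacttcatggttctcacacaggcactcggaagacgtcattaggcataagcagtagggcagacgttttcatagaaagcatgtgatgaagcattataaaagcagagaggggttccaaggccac
The letters searched were TTNNGNAA (a C/EBP motif), GAGGAA (PU.1), GATAA (GATA factors) and CCCNNGGG (EBF). The S100a9 window held 1 match to the C/EBP letters, starting 173 bases before the start site, 1 to PU.1 at 209 and 1 to GATA at 71, and 0 to EBF. The Clec1b window held 1 match, to GATA, starting 121 bases before the table's start site and so inside the annotated interval of the gene, and the Gzmb window held 0. Of 33469 windows of this length, 37.2% hold the C/EBP letters, 23.3% those of PU.1, 23.5% those of GATA and 10.8% those of EBF. The matches describe the letters and show no binding.

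Levels are log2 intensities relative to the 75th percentile of the array, and probes with different sequences cannot be compared in level. S100a8, S100a9, Cd79b and Clec1b were lower in all 4 perfused groups than in the non-perfused group of the same diet, and Gzmb was higher in all 4. Gzmb was 2.12-fold to 3.31-fold higher. On most perfused arrays the transcripts of S100a8, S100a9, Cd79b and Clec1b were not well above background (0, 3, 0 and 1 of 20 were), so a group without such an array gives only a lower bound of the decrease, and values below background have no order. In chow-fed hearts S100a9 was at least 7.64-fold lower with glucose and at least 11.8-fold lower with mannitol. The bounds below ("at least") set the mean of the bright group against the lowest signal called well above background on each dim array, or the probe's own signal where that was higher. Bright arrays that were not well above background entered with their own signal, so a bound is approximate where the bright group held such arrays. Sizes also depended on the background correction: under normexp, an alternative that adds an offset, the decreases shrank to log2 differences between -1.52 and -0.24 and those of Gzmb to between 0.54 and 0.94, with each direction kept.

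**Figure D1:**
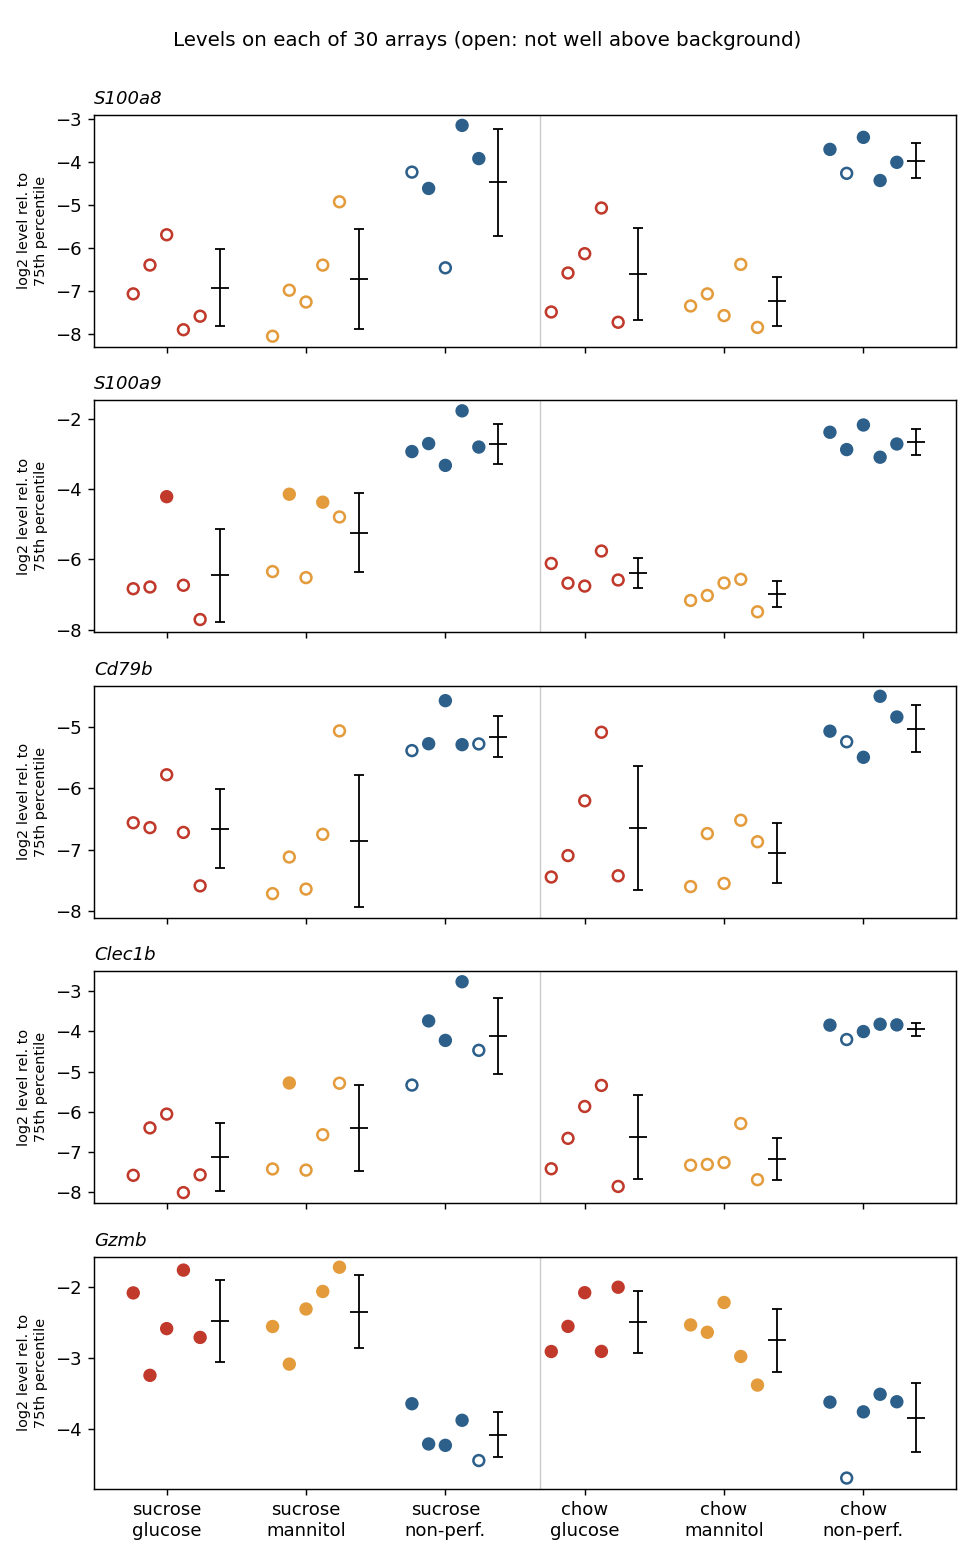
Log2 level of each gene on each array (y axis, relative to the array's 75th percentile) in the 6 groups of 5 arrays (x axis). Filled points were well above background and open points were not, and black marks give the mean with its SD. S100a9 was well above background on all 10 non-perfused arrays and on 3 of 20 perfused arrays, and Gzmb was above background on all 20 perfused arrays.

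In sucrose-fed hearts, S100a9 lay at -6.83, -6.78, -4.21, -6.73 and -7.71 with glucose, at -6.34, -4.14, -6.52, -4.37 and -4.79 with mannitol, and at -2.93, -2.71, -3.32, -1.77 and -2.80 without perfusion. In chow-fed hearts it lay at -6.11, -6.67, -6.76, -5.76 and -6.58 with glucose, at -7.17, -7.02, -6.67, -6.56 and -7.49 with mannitol, and at -2.38, -2.88, -2.18, -3.09 and -2.72 without perfusion. No perfused array of either diet reached the non-perfused arrays of that diet. The transcript was well above background on 1 sucrose glucose array, 2 sucrose mannitol arrays and 0 perfused chow arrays, against all 5 non-perfused arrays of each diet. The log2 differences were -3.75 with glucose and -2.53 with mannitol in sucrose-fed hearts, and -3.73 and -4.33 in chow-fed hearts (SE 0.48, n = 5 a group). Those in chow-fed hearts count only as the bounds given above. Those in sucrose-fed hearts rest mostly on perfused values below background, so their sizes are uncertain too. Within single slides, the differences over all 4 comparisons ran between -5.15 and -0.89.

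S100a8 encodes the other calprotectin chain. With glucose, sucrose-fed hearts gave -7.07, -6.40, -5.70, -7.90 and -7.59, with mannitol -8.05, -6.98, -7.26, -6.40 and -4.93, and without perfusion -4.24, -4.62, -6.46, -3.16 and -3.93. Chow-fed hearts gave -7.49, -6.58, -6.14, -5.07 and -7.73 with glucose, -7.35, -7.07, -7.57, -6.38 and -7.85 with mannitol, and -3.71, -4.27, -3.43, -4.44 and -4.01 without perfusion. The groups overlapped in sucrose-fed hearts, where non-perfused replicate 3, not well above background, was as low as perfused arrays. They did not overlap in chow-fed hearts. No perfused array was well above background, against 3 sucrose and 4 chow non-perfused arrays. The decreases were at least 2.82-fold with glucose and 2.30-fold with mannitol in sucrose-fed hearts, and at least 3.05-fold and 4.70-fold in chow-fed hearts. The measured differences were -2.45, -2.24, -2.63 and -3.27 in the same order (SE 0.57). Within single slides they ran between -4.74 and 1.53. Differences above 0 set sucrose non-perfused replicate 3 against perfused arrays of its slide, none well above background, and so give no order.

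Clec1b, the platelet receptor, lay at -7.57, -6.40, -6.06, -8.00 and -7.56 in sucrose-fed hearts with glucose, at -7.42, -5.28, -7.44, -6.57 and -5.29 with mannitol, and at -5.34, -3.74, -4.23, -2.77 and -4.47 without perfusion. In chow-fed hearts it lay at -7.41, -6.66, -5.87, -5.34 and -7.85 with glucose, at -7.32, -7.30, -7.26, -6.29 and -7.68 with mannitol, and at -3.85, -4.21, -4.01, -3.83 and -3.84 without perfusion. The groups overlapped only between sucrose mannitol and sucrose non-perfused arrays, where the lowest non-perfused array was not well above background. The transcript was well above background on 1 of 20 perfused arrays, sucrose mannitol replicate 2, against 3 sucrose and 4 chow non-perfused arrays. It was at least 3.65-fold lower with glucose in sucrose-fed hearts, and at least 3.11-fold lower with glucose and 4.79-fold lower with mannitol in chow-fed hearts. The log2 difference of the sucrose mannitol group was -2.29 (SE 0.50), which rests mostly on perfused values below background. Within single slides the differences over all comparisons ran between -5.23 and -1.06.

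Cd79b, the B cell receptor chain, gave -6.56, -6.64, -5.78, -6.72 and -7.59 in sucrose-fed hearts with glucose, -7.71, -7.12, -7.64, -6.75 and -5.07 with mannitol, and -5.39, -5.28, -4.58, -5.29 and -5.28 without perfusion. Chow-fed hearts gave -7.44, -7.09, -6.20, -5.09 and -7.42 with glucose, -7.60, -6.74, -7.55, -6.52 and -6.87 with mannitol, and -5.07, -5.25, -5.50, -4.51 and -4.84 without perfusion. Sucrose mannitol and chow glucose overlapped with the non-perfused arrays through a single array each, replicate 5 and replicate 4, neither well above background. The other comparisons did not overlap. No perfused array was well above background, against 3 sucrose and 4 chow non-perfused arrays. The bounds were small: at least 1.76-fold and 1.44-fold lower with glucose and mannitol in sucrose-fed hearts, and at least 1.46-fold and 2.25-fold lower in chow-fed hearts. The measured log2 differences ran from -2.02 to -1.49 (SE 0.43), and within single slides between -2.59 and -0.49.

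Gzmb went the other way. In sucrose-fed hearts it lay at -2.09, -3.25, -2.59, -1.77 and -2.71 with glucose, at -2.56, -3.09, -2.31, -2.07 and -1.73 with mannitol, and at -3.64, -4.21, -4.23, -3.88 and -4.44 without perfusion. In chow-fed hearts it lay at -2.91, -2.56, -2.09, -2.91 and -2.01 with glucose, at -2.54, -2.64, -2.22, -2.98 and -3.38 with mannitol, and at -3.62, -4.69, -3.76, -3.51 and -3.62 without perfusion. Every perfused array was above the non-perfused arrays of its diet. The transcript was well above background on all 20 perfused arrays and on 4 of 5 non-perfused arrays of each diet. The log2 differences were 1.60 with glucose and 1.73 with mannitol in sucrose-fed hearts, and 1.34 and 1.09 in chow-fed hearts (SE 0.28). The other probe of the gene, A_64_P004796, gave 1.63, 1.62, 1.20 and 0.75. Within single slides the differences ran between 0.60 and 2.50.

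**Figure D2:**
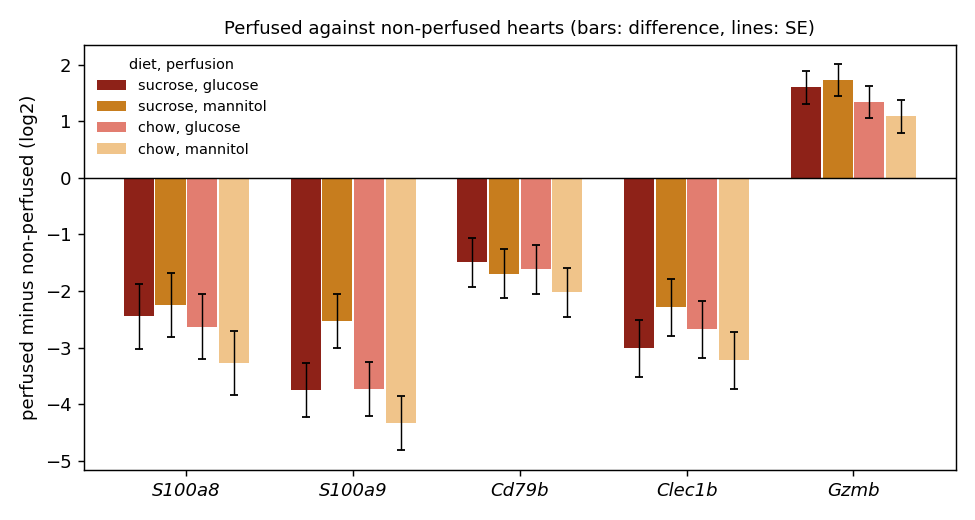
Log2 difference of perfused minus non-perfused group means (y axis) for each gene (x axis), with the SE of the limma fit (n = 5 a group). Bars of S100a8, S100a9, Cd79b and Clec1b point down in all 4 comparisons, with most of their perfused values below background, and those of Gzmb point up, from 1.09 to 1.73. Comparisons of one diet share their non-perfused arrays.

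Red cell genes moved with these differences. Of 22 genes on a red cell list, 10 were tested and 8 fell in each of the 4 comparisons, with medians of -5.96 (glucose) and -5.80 (mannitol) in sucrose-fed hearts and -5.66 and -5.10 in chow-fed hearts. Over all genes tested the share that fell was 3.14% and 5.67% in sucrose-fed hearts with glucose and mannitol, and 4.04% and 3.65% in chow-fed hearts. Alas2, the erythroid enzyme of haem synthesis, fell, with log2 differences of -5.95 to -5.23. The summed level of the list ran from 2.63 to 6.69 on perfused arrays and from 9.20 to 9.92 on non-perfused arrays. Chow mannitol replicate 3 had the highest perfused value, 6.69, and its S100a9 level of -6.67 was within the range of its group. Sucrose mannitol replicate 2 had a summed level of 4.49 and the highest S100a9 level of its group, -4.14. Chow glucose replicate 4 had a summed level of 4.72, the second highest of the perfused arrays. Its levels of S100a9 (-5.76), S100a8 (-5.07), Clec1b (-5.34) and Cd79b (-5.09) were not well above background and so have no order within its group. Sucrose glucose replicate 3 had the lowest summed level of its group, 2.81. Its S100a9 level of -4.21 was the highest of its group and well above background. What part red cell content had in the differences of the 5 genes was not tested. The cardiomyocyte list was present throughout, with summed levels of 11.6 to 12.4 on perfused and 11.9 to 12.5 on non-perfused arrays.

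Most other tested genes of the same cell types were not called lower. Of 33 neutrophil genes, 28 had a probe and 13 were tested. None fell in any comparison by limma, and 1 and 2 rose in sucrose-fed hearts with glucose and mannitol. At an unadjusted p under 0.05, 1 gene was lower, in sucrose-fed hearts with mannitol, and 4 (glucose) and 3 (mannitol) were higher in sucrose-fed and 2 and 1 in chow-fed hearts. The granule protein genes Lcn2 and Camp changed by -0.53 to 0.55 and by -0.16 to 0.03, and the chemokine receptor gene Cxcr2 by -0.28 to -0.0017, all without a call. Cybb, the oxidase subunit shared with macrophages, rose in sucrose-fed hearts by 0.99 with glucose and 1.07 with mannitol (SE 0.19, adjusted p = 0.000497 and 0.000212). Its differences in chow-fed hearts were 0.56 and 0.47 (adjusted p = 0.055 and 0.13). The list's medians lay between -0.0030 and 0.044, beside -0.046 to -0.014 over all genes tested. Its summed level was 4.19 to 4.60 on perfused and 4.12 to 4.61 on non-perfused arrays.

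Of 25 B cell genes, 11 were tested. In sucrose-fed hearts 1 fell with either sugar and 2 (glucose) and 3 (mannitol) rose, and in chow-fed hearts 3 fell and 1 rose with either. Spib, a transcription factor gene of B cells and plasmacytoid dendritic cells, fell in all 4 comparisons (limma, adjusted p from 0.00432 to 0.0227), with overlap in sucrose-fed hearts. It was well above background on 1 perfused array, in the sucrose mannitol group. There the log2 difference was -1.32 (SE 0.33), which rests mostly on perfused values below background. The other decreases were at least 1.82-fold in sucrose-fed hearts with glucose, and at least 1.69-fold with glucose and 2.09-fold with mannitol in chow-fed hearts. Fcrla, a B cell Fc receptor-like gene, fell in chow-fed hearts (-0.99 and -0.94), with overlap. Blnk, the adaptor that couples the B cell receptor to its signals, rose in all 4 comparisons, by 0.66 to 0.81 (SE 0.15). Pax5 ran from -0.19 to 0.20 without a call. The list's medians were -0.19 (glucose) and 0.075 (mannitol) in sucrose-fed hearts and 0.053 and 0.12 in chow-fed hearts. Shares of all genes that rose were 5.54% and 5.53% in sucrose-fed hearts with glucose and mannitol, and 5.47% and 4.83% in chow-fed hearts.

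Of 24 platelet genes, 11 were tested. In sucrose-fed hearts 1 fell with glucose and 0 with mannitol by limma (2 with mannitol at an unadjusted p under 0.05), and in chow-fed hearts 2 fell with either. By limma 1 (glucose) and 2 (mannitol) rose in sucrose-fed hearts and 0 in either chow comparison. Gp1bb, a chain of the von Willebrand factor receptor, fell in chow-fed hearts with glucose (-0.43) and mannitol (-0.37) and in sucrose-fed hearts with glucose (-0.32) (SE 0.09, adjusted p = 0.00176, 0.00921 and 0.028). Pf4, a chemokine of platelet granules, fell in chow-fed hearts (-0.45 and -0.54, SE 0.12), with overlap. Plek, a kinase substrate of platelets and leukocytes, rose in sucrose-fed hearts by 1.77 and 1.32 (SE 0.43). Platelet list medians were -0.15 (glucose) and -0.062 (mannitol) in sucrose-fed hearts and -0.17 and -0.30 in chow-fed hearts. Over all genes tested they were -0.046 to -0.014. The summed level of the list was 1.45 to 1.87 on perfused arrays (median 1.66) and 1.69 to 2.06 on non-perfused arrays (median 1.97).

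Counts of fallen genes over the neutrophil, B cell and platelet lists were 2 (glucose) and 1 (mannitol) in sucrose-fed hearts and 5 and 5 in chow-fed hearts, and some rested on single arrays. The count of 2 became 0 without sucrose glucose replicate 4 or 5 or without sucrose non-perfused replicate 3. It became 1 without sucrose glucose replicate 1 or 2, or without sucrose non-perfused replicate 2 or 4. The count of 1 became 2 without sucrose mannitol replicate 1, and the chow glucose count of 5 became 3 without chow glucose replicate 1. The neutrophil, B cell and platelet lists held 13, 11 and 11 tested genes. In that order, 1, 2 and 1 rose with glucose in sucrose-fed hearts, and 2, 3 and 2 with mannitol. In chow-fed hearts 0, 1 and 0 rose with either. Over all genes tested, 3.14% (glucose) and 5.67% (mannitol) fell in sucrose-fed and 4.04% and 3.65% in chow-fed hearts.

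Genes of cytotoxic lymphocytes other than Gzmb rose in part and none fell by limma (0 were lower at an unadjusted p under 0.05). Of 28 on the list, 20 were tested, and 10 (glucose) and 8 (mannitol) rose in sucrose-fed hearts and 7 and 4 in chow-fed hearts. List medians were 0.73, 0.56, 0.56 and 0.44. Faslg, the ligand of the death receptor Fas, rose by 1.37 with glucose and 1.24 with mannitol in chow-fed hearts (SE 0.23) and was at least 2.02-fold and 1.92-fold higher in sucrose-fed hearts, where 0 of 5 non-perfused arrays had it well above background (adjusted p at most 0.000391). Ctsw, a protease of cytotoxic cells, rose by 0.98 to 1.43 (SE 0.30), and the granzyme gene Gzmk rose in 3 comparisons and had a difference of 0.96 in chow-fed hearts with mannitol (adjusted p = 0.093). Gzma ran from -0.36 to -0.14 and the perforin gene Prf1 from 0.43 to 0.82, both without a call. Summed levels of the list were 5.92 to 7.69 on perfused and 6.44 to 7.36 on non-perfused arrays.

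The cytotoxic counts depended on single arrays. The chow glucose count of 7 became 2 without chow non-perfused replicate 3 or chow glucose replicate 5, 3 without chow non-perfused replicate 2 or chow glucose replicate 3, and 4 without chow glucose replicate 2. The chow mannitol count of 4 became 1 without chow non-perfused replicate 2, and 2 without chow non-perfused replicate 3 or chow mannitol replicate 2 or 5. The sucrose mannitol count of 8 became 4 without sucrose mannitol replicate 4, and 5 without sucrose mannitol replicate 5 or sucrose non-perfused replicate 1 or 5.

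**Figure D3:**
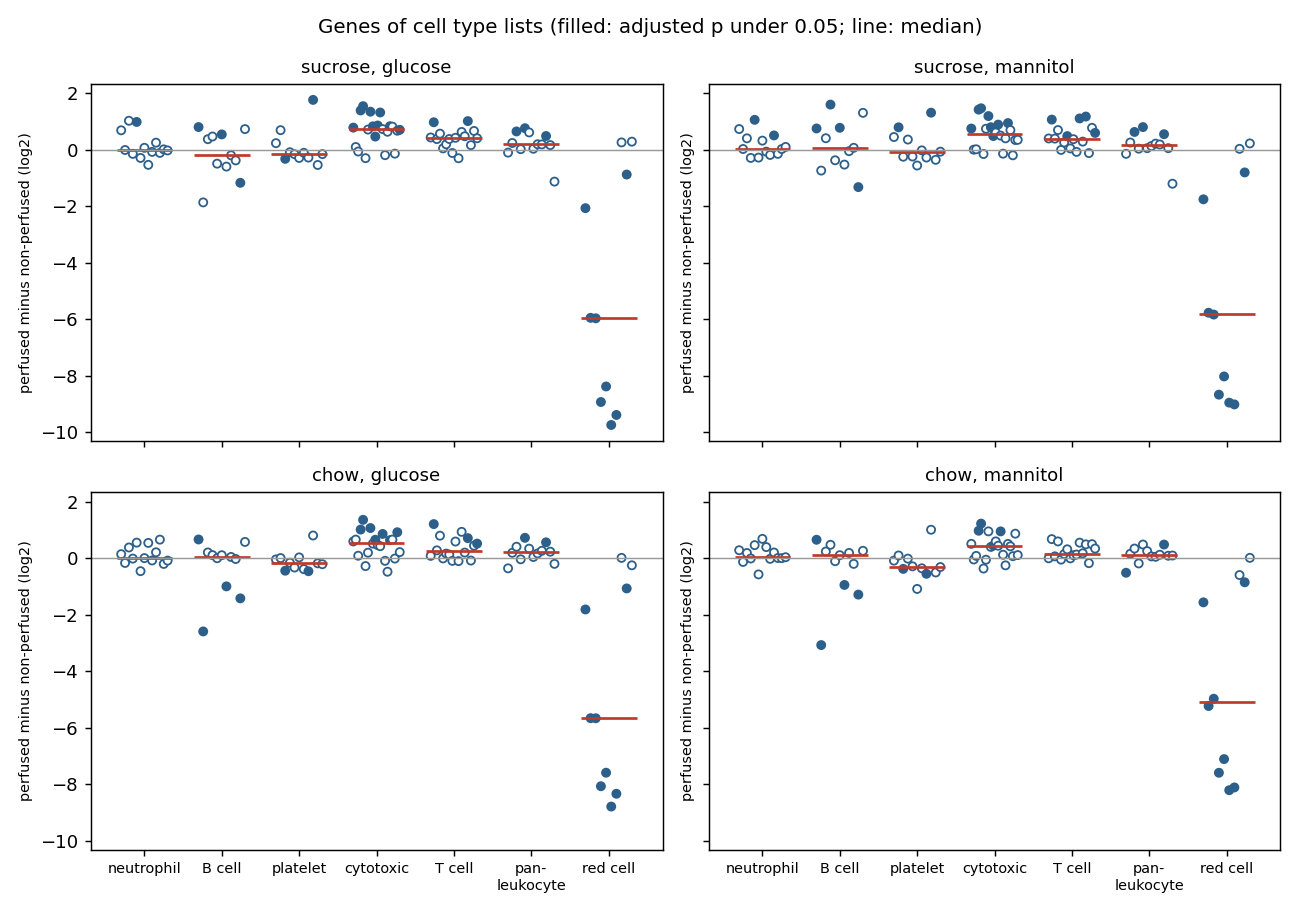
Log2 difference of perfused minus non-perfused means (y axis) for each tested gene of 7 cell type lists (x axis), in the 4 comparisons. Filled points passed an adjusted p of 0.05 and red lines are list medians. Red cell genes reach furthest down, the neutrophil list stays near 0, and the cytotoxic list has its filled points above 0.

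Known partners of the 5 proteins were followed as well. Of 18 such genes 12 were tested, and Blnk rose in each comparison, as given above. Bsg, a receptor of S100a9, fell in sucrose-fed hearts with mannitol (-0.29, SE 0.09, adjusted p = 0.0368). The calprotectin receptor genes Tlr4 and Ager ran from -0.52 to -0.086 and from -0.073 to 0.061, and Syk, which acts below Clec1b, from -0.074 to 0.12, all without a call. The podoplanin gene Pdpn ran from -0.066 to 0.18. Srgn, the proteoglycan of granules that hold granzymes, ran from 0.056 to 0.18, and Serpinb9, the granzyme B inhibitor, from -0.47 to 0.11, without a call.

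Glucose against mannitol and sucrose against chow were not used to choose the genes, although the same arrays enter. S100a8, Cd79b and Clec1b passed the filter only through the chow non-perfused group, with 4 arrays each well above background. In the sucrose non-perfused group 3 arrays were. Their test of sucrose against chow without perfusion is thus not free of that filter. By limma, 0 of 10 glucose tests and 0 of 15 diet tests passed an adjusted p of 0.05, and 1 in each family had an unadjusted p under 0.05. All of the glucose tests and 10 of the diet tests compare perfused hearts. There S100a8 and Cd79b were well above background on 0 of 20 arrays, Clec1b on 1 and S100a9 on 3, so for these 4 genes most of the tests set values below background against each other and had no measured level to compare. Over all genes, 0.00545% were called for glucose against mannitol in sucrose-fed hearts (928 at unadjusted p under 0.05) and 0% in chow-fed hearts (715). For sucrose against chow the share was 0% with glucose (804), 0.00545% with mannitol (1455) and 0% without perfusion (612).

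Both of the single tests concern S100a9 in sucrose-fed hearts perfused with mannitol. With glucose its level averaged -6.45 ± 1.31, against -5.23 ± 1.12 with mannitol (SD, n = 5), a difference of -1.22 with a 95% interval of -2.21 to -0.23 (limma, adjusted p = 0.97). Only 1 of these glucose arrays and 2 of the mannitol arrays had it well above background. With mannitol, sucrose-fed hearts averaged -5.23 ± 1.12, against -6.98 ± 0.37 in chow-fed hearts (SD, n = 5). The transcript was well above background on 2 of these sucrose arrays and on 0 of the chow arrays. Both means thus rest mostly or wholly on values below background, and no bound of the difference can be given. The measured difference, taken with the values below background as they stand, was 1.75 (interval 0.76 to 2.74, limma, adjusted p = 0.382). Within slides that measured difference ran from 0.049 to 2.95, and with slide as a block it was 2.01 (adjusted p = 0.142). The slide row differed too: all chow mannitol arrays lay in row 1, and 4 of 5 sucrose mannitol arrays in row 2, and its part was not tested. A further test, added after the levels were seen, set the glucose difference of sucrose-fed hearts against that of chow-fed hearts and gave -1.83 for S100a9 (SE 0.68, limma, adjusted p = 0.984).

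For Gzmb, well measured on nearly all arrays, the intervals were narrower. Glucose minus mannitol was -0.13 (-0.71 to 0.46) in sucrose-fed and 0.26 (-0.33 to 0.84) in chow-fed hearts. Sucrose minus chow was 0.014 (-0.57 to 0.60) with glucose, 0.40 (-0.18 to 0.99) with mannitol and -0.24 (-0.83 to 0.34) without perfusion. In non-perfused hearts, S100a9 was well above background on all 10 arrays and S100a8, Clec1b and Cd79b on 7 each. There sucrose minus chow was -0.059 (-1.05 to 0.93) for S100a9 and -0.51 (-1.68 to 0.66) for S100a8. It was -0.16 (-1.20 to 0.87) for Clec1b and -0.13 (-1.02 to 0.76) for Cd79b. Each of these 4 intervals reached further from 0 than the SD of either group.

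**Figure D4:**
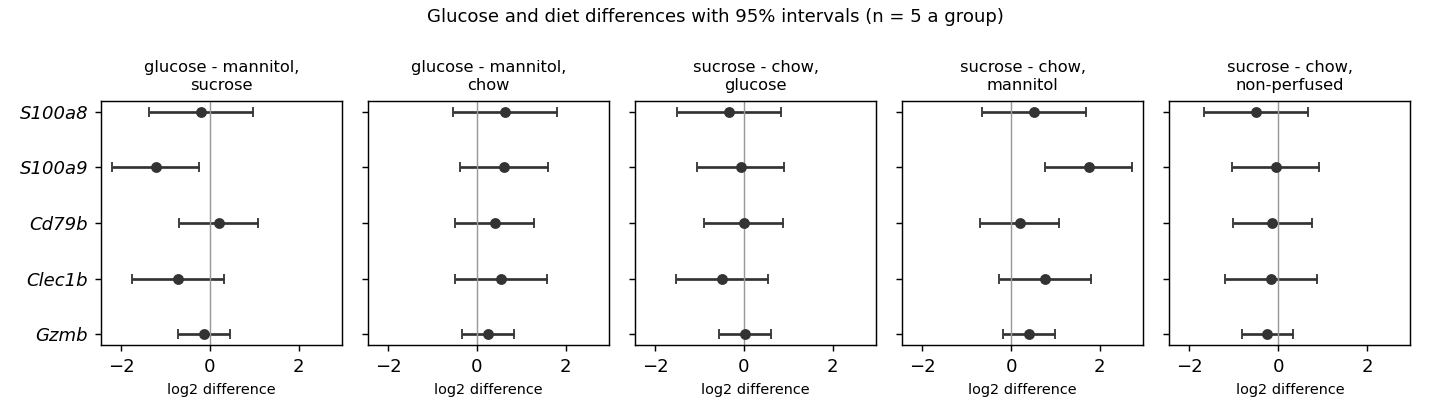
Log2 difference (x axis) with its 95% interval for each gene (y axis) in the comparisons of glucose against mannitol and of sucrose against chow. Intervals of S100a9 lie on one side of 0 in 2 comparisons that share the sucrose mannitol arrays and rest mostly on values below background, and all other intervals cross 0.

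Across the 10 non-perfused arrays, 10 pairs of the genes were correlated. S100a8 and S100a9 had r = 0.816 (permutation p = 0.00422, adjusted p = 0.0422) and rho = 0.794 (permutation p = 0.00858, adjusted p = 0.0858), and r = 0.80 without the 2 arrays farthest from the median of S100a8. Within the diets r was 0.834 over 5 sucrose arrays and 0.996 over 5 chow arrays, given without a test. S100a8 was well above background on 7 of the 10 arrays. Leaving out any of 5 arrays took the adjusted p above 0.05, with r from 0.794 to 0.823: chow non-perfused replicates 1, 2, 3 and 5 and sucrose non-perfused replicate 4. No slide held more than 3 of these arrays, too few for a value within slides. No other pair passed, with r from -0.617 for S100a8 with Cd79b (adjusted p = 0.176) to 0.625 for S100a9 with Clec1b (adjusted p = 0.176).

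**Figure D5:**
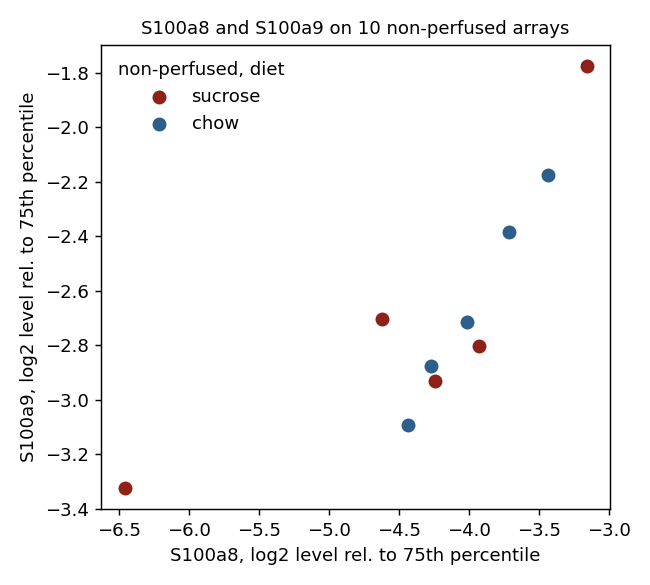
Level of S100a9 (y axis) against that of S100a8 (x axis), both log2 relative to the array's 75th percentile, on 5 sucrose and 5 chow non-perfused arrays. The arrays run from low to high in both genes (r = 0.816).

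As a description, other genes followed the members over these 10 arrays at least as closely, by the r of deviations from the mean of the diet group, among 11303 named genes. For S100a8 they were Or5a3 (0.987), Tp53rkb (0.969) and Etf1 (0.945), and S100a9 ranked 58. For S100a9 they were Vmp1 (0.943), Katnbl1 (0.929) and the T cell gene Cd6 (0.928), and S100a8 ranked 30. For Cd79b they were Ndst2 (0.971), Noc2l (0.944) and Trmt13 (0.931). For Clec1b they were Dync1i1 (0.963), Igf1r (0.926) and Sit1 (0.919), and for Gzmb Slc30a1 (0.952), Ubd (0.948) and Asah2 (0.928).

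The share of probes well above background ran from 48.8% to 75.4% over the arrays, and 4 arrays had negative control spots with an SD above 8 intensity units. These were sucrose mannitol replicate 5, replicates 1 and 5 of the sucrose non-perfused group and replicate 2 of the chow non-perfused group. Without them, the cytotoxic counts were 4 (glucose) and 2 (mannitol) in sucrose-fed hearts and 1 in chow-fed hearts with mannitol. Of 5 slides, 4 held all groups, and the remaining one carried only sucrose mannitol replicate 1. By the file headers that array was also scanned on a different day from all others. Non-perfused arrays all lay in row 1 and glucose arrays in row 2, so row and perfusion with glucose cannot be told apart. All chow mannitol arrays lay in row 1, so the same holds for glucose against mannitol in chow-fed hearts. In sucrose-fed hearts 4 of 5 mannitol arrays lay in row 2, so there row and perfusion with mannitol nearly coincide.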

How the data were processed

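One-colour Agilent arrays were read from the deposited scanner tables, whose processed intensity had its background subtracted and its spatial trend removed in the authors' Feature Extraction run (version 11.0.1.1 per the file headers, 10.3 per the submitters' processing notes). The authors' deposited series table holds log2 values with unstated scaling between arrays (column medians 7.23 to 7.24) and served as an alternative. Spots of a probe were averaged as intensities without outlier spots, log2 was taken, and the 75th percentile of each array was subtracted. Of 30367 probes, 18355 were named through their accession in RefSeq tables of GRCr8, and the brightest probe stood for a gene. Groups came from sample titles. limma 3.58.1 in R 4.3.3 fitted 6 group means with eBayes, and p-values were adjusted by Benjamini-Hochberg over all 18333 tested genes, with a threshold of 0.05. Correlations used 100000 permutations, two-sided, in Python 3.11.15. The main limma fit was tested on simulated arrays with known changes and independent normal values. That simulation had no background floor and no slide effect, and the alternative settings were not simulated. The number of arrays limits the precision.

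The members and the gene lists were chosen with earlier results of these data known. Named genes were the 5 members, the first 3 tested genes of each list with up to 3 called genes of largest mean change, the tested partners and the 3 genes most alike each member; 1 gene that this rule names is not reported here. Alternatives were other scalings, background correction, filters, floors, probe averaging, blocks and left-out arrays. Averaging spots on the log2 scale was chosen after seeing the data.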

Additional observations from a re-analysis of the deposited data

Results flagged for a closer look

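Among 30 groups of 5 arrays (5 genes in 6 groups), 3 held an array set apart from the rest of its group, where chance gives about 1 in 20. S100a9 on sucrose glucose replicate 3 was -4.21, well above background, while the nearest of its group was -6.73. Cd79b on sucrose non-perfused replicate 3 was -4.58, against -5.28 for the nearest. Gzmb on chow non-perfused replicate 2 was -4.69, not well above background, against -3.76 for the nearest, on an array whose negative controls had an SD of 13.9 intensity units.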

How the results depend on the processing

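Values for perfused minus non-perfused hearts are given in the order glucose and mannitol in sucrose-fed hearts, then glucose and mannitol in chow-fed hearts. All 20 differences of the members kept their direction under every alternative that gave a value, and leaving out single arrays moved none by more than the spread between replicates. Their size depended on the treatment of low signals. Normexp correction gave -0.88, -0.95, -0.87 and -0.79 for S100a8, -1.42, -1.19, -1.41 and -1.52 for S100a9, -0.44, -0.57, -0.24 and -0.33 for Cd79b, -0.95, -0.91, -0.69 and -0.82 for Clec1b, and 0.86, 0.94, 0.77 and 0.54 for Gzmb. In the authors' deposited table, where arrays without a value dropped out of the fit, S100a8 was -4.05 and -4.31 with mannitol in sucrose-fed and chow-fed hearts, S100a9 -4.92 in chow-fed hearts with glucose, Cd79b -3.22 (sucrose, mannitol) and -2.95 (chow, glucose), and Clec1b -5.55 and -4.86 with glucose in sucrose-fed and chow-fed hearts. S100a8 had no value on any glucose array there. With signals raised to the lowest one well above background, chow-fed hearts gave -1.67 and -2.29 for S100a8, -2.93 and -3.56 for S100a9, -0.80 and -1.43 for Cd79b and -1.68 and -2.31 for Clec1b, and sucrose-fed hearts -2.10 for Clec1b (glucose) and -0.85 for Cd79b (mannitol). Quantile normalization moved Cd79b to -1.37 in chow-fed hearts with mannitol.

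The counts of fallen neutrophil, B cell and platelet genes (2, 1, 5 and 5) became 1, 0, 1 and 1 under normexp and 0 in each comparison in the authors' table. They became 1, 0 and 3 with raised signals in all but chow mannitol, 1 and 3 for glucose with only the compared groups, 1 (sucrose, glucose) without a filter and 1, 0, 2 and 2 with genes above background on all 30 arrays. The sucrose mannitol count became 2 with slide as a fixed or random block, without the noisy arrays or without the array alone on its slide. Counts of risen cytotoxic genes (10, 8, 7 and 4) became 3, 2, 4 and 0 under normexp, 0, 1, 0 and 0 in the authors' table, and 5, 3 and 2 with raised signals in all but the first. They became 5, 4 and 4 with only the compared groups in all but the last, 5, 4, 2 and 1 with the strict filter, and 4, 2 and 1 without the noisy arrays in all but chow glucose. Leaving out single arrays gave 0 to 2, 1 to 2, 3 to 6 and 4 to 5 fallen genes and 7 to 12, 4 to 9, 2 to 8 and 1 to 4 risen cytotoxic genes. Over all genes, 1592, 2054, 1742 and 1556 were called in either direction. These became 848, 967, 969 and 843 under normexp and 447, 413, 421 and 361 in the authors' table. Medians of the cytotoxic list were 0.35, 0.24, 0.40 and 0.26 under normexp and 0.89, 0.67, 0.49 and 0.46 in the authors' table. The cause was not tested. No member was above background on all 30 arrays, so the strict filter gave no member values.

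No setting called a member for glucose or diet, where adjusted p ran from 0.142 to 1. The S100a8 and S100a9 pair was lost with raised signals (0 pairs passed) and leaving out single arrays gave 0 to 1 pairs. In the authors' table that pair had r = 0.738 (adjusted p = 0.0684) and S100a9 with Clec1b passed instead (r = 0.855, adjusted p = 0.0088). Replicate numbers did not pair the samples: arrays of one number had a mean residual correlation of -0.037, against 0.0097 for other numbers and 0.20 for arrays of one slide. With the replicate number as a block, the S100a9 differences were -3.75, -2.53, -3.73 and -4.33, the counts of fallen genes 2, 1, 5 and 4 and those of risen cytotoxic genes 10, 8, 7 and 3, and no call of a member changed.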

Other observations

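Genes of other leukocytes were called in perfused against non-perfused hearts as well. Over all genes tested, 5.54% (glucose) and 5.53% (mannitol) rose in sucrose-fed and 5.47% and 4.83% in chow-fed hearts. Of 16 T cell genes tested, 2 (glucose) and 5 (mannitol) rose in sucrose-fed hearts and 3 and 0 in chow-fed hearts, and none fell. Cd2, an adhesion molecule of T and natural killer cells, ran from 0.69 to 1.22, and Lck, the kinase of the T cell receptor, from 0.50 to 1.18, each called in 3 comparisons. Cd3d, a chain of the T cell receptor complex, ran from -0.041 to 0.055 without a call. Of 13 resident macrophage genes tested, 3 and 4 rose in sucrose-fed hearts and 0 in either chow comparison. Mrc1 ran from 0.34 to 1.55, Adgre1 from 0.51 to 0.73 and Lyve1 from -0.14 to 0.73, each called higher in 2 comparisons. Cd163 ran from 0.085 to 0.72 and was called higher in 1. Maf, a transcription factor gene, was alone on the list in being called lower. It fell in sucrose-fed hearts with glucose (-0.45) and mannitol (-0.51) and in chow-fed hearts with mannitol (-0.46). The difference between the diets was not tested for the list. Of 12 pan-leukocyte genes, 3 and 3 rose in sucrose-fed hearts and 2 and 1 in chow-fed hearts, and Arhgdib fell in chow-fed hearts with mannitol (-0.51). Ptprc rose in all 4 comparisons, by 0.49 to 0.57.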
